A study of Mus musculus with 12 samples.

Results

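The 10 genes described here encode cytosolic heat shock chaperones and their helpers: Hspa1a, Hspa1b, Hspa8, Hsph1, Dnajb1, Dnaja1, Hsp90aa1, Hspb1, Hspb7 and Bag3. They were chosen by name, and all 10 were found by Ensembl gene identifier among the 47729 genes counted and were among the 15336 genes with enough reads to be tested. RNA was sequenced from hearts of male C57BL/6 mice that were 8 weeks old at the start, in 12 libraries of 3 per group. Pumps under the skin delivered saline or angiotensin II (Ang II), the pressor peptide of the renin-angiotensin system, for 28 days. The Control libraries, whose titles add "Ang II control", were taken to be the saline group, and the Ang II group had the peptide without a drug. The 2 treated groups received Ang II as well, and in the last 2 weeks also oral EHP-101 at 20 mg/kg (Ang II + EHP-101) or losartan at 0.6 g/L in the drinking water (Ang II + Losartan). A vehicle is also named for these weeks, without the groups that had it. EHP-101 is an oral form of a cannabidiol derivative with activity at PPARγ and CB2 receptors, and losartan is an antagonist of the AT1 receptor, through which Ang II acts. The labels name the tissue as heart, give no part of it, and do not say that each library is a separate animal. The p-values therefore set differences against the spread between these libraries, which may be technical.

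Heat shock proteins keep other proteins folded. HSP70 proteins bind unfolded stretches of a client in a cycle driven by ATP: J-domain proteins hand the client over and start ATP hydrolysis, and nucleotide exchange factors such as HSP110 and the BAG proteins release it. Small heat shock proteins hold unfolding clients without ATP, and HSP90 finishes the folding of kinases and steroid receptors. When unfolded protein accumulates, the transcription factor HSF1 binds heat shock elements, which are alternating repeats of GAA and TTC, and switches many of these genes on. In heart muscle, BAG3 and the small heat shock proteins are also known for maintaining the sarcomere, and loss of either can lead to cardiomyopathy.

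The elements were looked for in RefSeq sequence (GRCm38.p6) of 250 bases upstream of each annotated start, which covered 8 of the 10 members in 12 promoters. Hspa8 and Hsp90aa1 were not among them. The motif searched was 3 units, GAANNTTCNNGAA, on both strands. It was present in full in 0 of the 8 members and in 0.466% of all 32851 promoters. With 1 mismatch allowed over its 9 fixed letters, it was present in 5 of the 8 members. By promoter it was present in 6 of their 12 and in 6.08% of all promoters. The promoters of Hsph1 overlap and share a single element, which is counted once per promoter. Hspa1a and Hspa1b hold identical copies. The 6 are therefore not 6 separate sites, and the share of all genes was not computed. These 5 members were Hspa1a, Hspa1b, Hsph1, Hspb1 and Dnaja1. Their elements are printed 5′ to 3′ on the gene's strand because they are the sequence features the members share, with the matched bases (overlapping matches joined) in capitals and 6 bases of flank on each side.
Hspa1a: agacgcGAAACTGCTGGAAGATTCctggcc
Hsph1: gaatctTTCTCGAAGGCTCGAGAAgaagga
Hspb1: acaagaGAAGTTTCCAGATgggggc
Dnaja1: aaaagcCTCTAGAAAATTCtacgag

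The matched bases lie at chr17:34972253-34972270 on the minus strand for Hspa1a and at chr5:149636352-149636369 on the minus strand for Hsph1. They lie at chr5:135887802-135887814 on the plus strand for Hspb1 and at chr4:40722339-40722351 on the plus strand for Dnaja1. Hspa1b has the same element and flanks as Hspa1a, at chr17:34959335-34959352 on the minus strand. Each is a match of letters and not a measured binding site. The promoters of Dnajb1, Hspb7 and Bag3 held no match in this window, which says only that these letters are not there. The last 150 bases before the start are printed for Hspa1a (chr17:34972157-34972306, minus strand) and Hspb1 (chr5:135887769-135887918, plus strand), to set a promoter of the inducible HSP70 pair beside that of a small heat shock protein.
Hspa1a: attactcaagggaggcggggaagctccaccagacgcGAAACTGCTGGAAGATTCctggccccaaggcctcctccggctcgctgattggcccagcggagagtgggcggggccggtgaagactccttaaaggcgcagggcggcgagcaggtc
Hspb1: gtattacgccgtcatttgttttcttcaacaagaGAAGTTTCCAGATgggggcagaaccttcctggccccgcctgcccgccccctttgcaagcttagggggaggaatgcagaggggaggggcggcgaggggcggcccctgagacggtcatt

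The upstream sequences of Hspa1a and Hspa1b differed at 3 of 250 bases (98.8% identical) and at 1 of the last 150. The letters CCAAT, read on both strands, began 67 bases before the start in both copies and were present in 5 of the 8 members. By promoter they were present in 7 of the members' 12 and in 33.8% of all promoters. Overlapping promoters of the same gene count separately here too. The bodies of Hspa1a and Hspa1b are also near-identical, which limits what counting can tell. Of the distinct 50-base windows in annotated transcripts, 50 bases being the read length, 33.7% of those of Hspa1a and 37.7% of those of Hspa1b occurred in no other gene's transcripts on either strand. Hspa1b held 58.8% of the windows of Hspa1a, and Hspa1a held 62.3% of those of Hspa1b. The share found in no other gene was 49.9% for Hspb1, 52.5% for Hsp90aa1, 60.6% for Hspa8 and 79.4% for Dnaja1, and the gene that shared most with each was Hsp25-ps1, Gm12346, Gm15459 and Gm15542. It was 99.3% for Hspb7, 99.6% for Dnajb1, and 100% for Hsph1 and Bag3. How reads that match several genes were counted is not given in the sources used here, so the levels of Hspa1a and Hspa1b are uncertain, and those of Hspb1, Hsp90aa1 and Hspa8 are uncertain to a lesser extent.

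In GRCm38 with GENCODE M21, Hspa1a (ENSMUSG00000091971) is a single exon on chromosome 17 from 34969190 to 34972156, and Hspa1b (ENSMUSG00000090877) a single exon on the same chromosome from 34956436 to 34959238. Of the bases of Hspa1a, 564 are also exon of Gm20481, which is read in the opposite direction, and reads of the 2 genes cannot be told apart there because the preparation does not mark strand. Hspa8 (ENSMUSG00000015656) spans chromosome 9 from 40800984 to 40810087, and Hsph1 (ENSMUSG00000029657) chromosome 5 from 149614287 to 149636376. Dnajb1 (ENSMUSG00000005483) lies on chromosome 8 from 83608193 to 83612653 and Dnaja1 (ENSMUSG00000028410) on chromosome 4 from 40722150 to 40737149, where 931 exon bases are shared with Gm6297, Mir207 and Smu1. Hsp90aa1 (ENSMUSG00000021270) lies on chromosome 12 from 110690605 to 110702728 and Hspb1 (ENSMUSG00000004951) on chromosome 5 from 135887919 to 135889563. Hspb7 (ENSMUSG00000006221) lies on chromosome 4 from 141420779 to 141425311 and Bag3 (ENSMUSG00000030847) on chromosome 7 from 128523616 to 128546981.

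Total counts were 22155418 to 24040516 per library, and the 10 members took 0.2698% to 0.4788% of them. Reads of mitochondrially encoded genes were 17.74% to 25.41%. Control replicate 2 stood apart: its score on the first principal component (35.27% of the variance) was -84.37, against scores from -12.72 to 32.41 for the other 11. All 10 cardiomyocyte markers were present in every library, with a summed level of 62438 to 84310 CPM (counts scaled to a common library size after TMM adjustment). The 7 skeletal muscle markers summed to 1185 to 4747 CPM, nearly all of it Acta1 and Ckm, which heart muscle also expresses. That sum was highest in Control replicate 2 (4747 CPM) and in Ang II + EHP-101 replicate 2 (3208 CPM), and its part in the levels of the members was not tested. The adult skeletal myosin genes Myh1, Myh2 and Myh4 reached at most 0.350, 0.464 and 0.304 CPM, Mylpf 1.35 CPM and Tnnt3 4.82 CPM. Control replicate 2 also had the highest sums of the 12 libraries for cardiomyocyte markers (84310 CPM) and red blood cell genes (740 CPM). Its sums were the lowest for fibroblast markers (2335 CPM) and smooth muscle markers (366 CPM). For atrial, endothelial, leukocyte and adipocyte markers its sums were at neither end. The part of these lists in the levels of the members was not tested either. In bulk tissue, fewer cells of a type and less RNA per cell cannot be told apart.

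Per length of exon, the members covered a wide range of levels. Hspb7, a small heat shock protein of cardiac and skeletal muscle, had a mean over 12 libraries of 888.3 RPKM (CPM per kilobase of exon). Hspa8, the constitutive HSP70, had 124 RPKM, Bag3 73.1 RPKM and Hspb1 68.9 RPKM. Hsp90aa1, the inducible HSP90, had 15.4 RPKM, against 408 RPKM for its constitutive relative Hsp90ab1. Hsph1, Dnajb1 and Dnaja1 had 9.18, 5.24 and 4.0 RPKM. Dnaja1 had more reads than Dnajb1, 9705 against 4699 over the 12 libraries. Its merged exons were 8629 bases against 3204, so their order depends on that length. Hspa1a and Hspa1b, the stress-inducible HSP70 genes, had 0.391 and 0.389 RPKM, from 12 to 60 and 13 to 44 reads per library. The other small heat shock protein of muscle that is best known, Cryab, had 937 RPKM, at the level of Hspb7. Between neighbours in this order the ranges over the 12 libraries overlapped, except between Hspb7 and Hspa8, between Hspb1 and Hsp90aa1 and between Dnaja1 and Hspa1a.

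**Figure D1:**
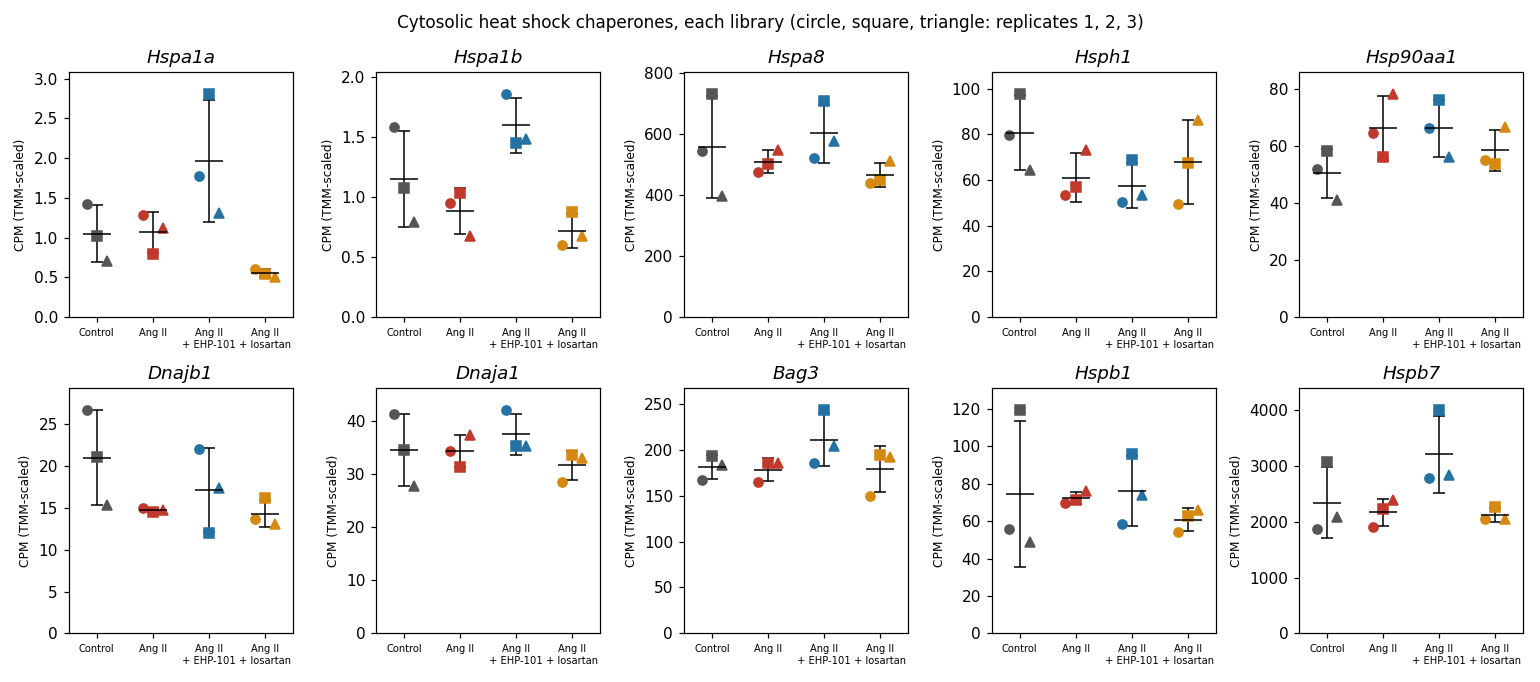
Level of each member (y axis, CPM scaled by TMM factors, from 0) in the 4 groups (x axis). Coloured points are libraries, the black dash is the mean of 3 libraries and the bar its SD. The means of Hspa1a and Hspa1b were highest under EHP-101 and lowest under losartan, and Control replicate 2 (grey square) held the top value of Hspa8, Hsph1 and Hspb1.

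The comparison of Ang II with Control asks what the infusion did to these genes. Of the 10 members, 0 passed the threshold, an adjusted p under 0.05 in edgeR's quasi-likelihood test over all genes. The count was also 0 in DESeq2 and in limma-voom, while 0.541% of all tested genes passed in edgeR. At an unadjusted p under 0.05 there were 2 members, 1 higher and 1 lower, against 17.6% of all genes, 9.09% higher and 8.53% lower. The median log2 fold change of the 10 was -0.07, with a range from -0.51 to 0.39, and that of all genes was -0.00068. The groups did not overlap for 1 member, which was lower, against 22.6% of all genes in either direction and 10.3% lower.

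That member was Dnajb1, the J-domain partner of the inducible HSP70. It had 26.6, 21.0 and 15.3 CPM in Control replicates 1 to 3, and 14.96, 14.5 and 14.8 CPM in the Ang II libraries. The Ang II libraries were close together and just below the lowest Control library. The log2 fold change was -0.51 ± 0.22 (SE), with an unadjusted p of 0.0373 and an adjusted p of 0.263 in edgeR. Without Control replicate 1 it was -0.30, and the adjusted p was 0.114 or more without any 1 library. Hsp90aa1 had 51.8, 58.2 and 41.2 CPM in the Control libraries and 64.6, 56.1 and 78.1 CPM in the Ang II libraries. The groups overlapped at Ang II replicate 2. Its log2 fold change was 0.39 ± 0.17 (unadjusted p = 0.0378, adjusted p = 0.264, edgeR).

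Hsph1, the HSP110 that exchanges nucleotide on HSP70, had 79.9, 97.5 and 64.6 CPM in Control and 53.3, 56.8 and 73.1 CPM under Ang II. Its highest Ang II library lay above its lowest Control library, and the log2 fold change was -0.40 ± 0.22 (adjusted p = 0.343, edgeR). Bag3, which bridges HSP70 to small heat shock proteins and to autophagy, had 181 ± 13.2 CPM in Control and 178 ± 12.1 CPM under Ang II (SD, n = 3). Its log2 fold change was -0.02 with a 95% interval from -0.33 to 0.29. The interval was -0.33 to 0.31 for Dnaja1, a J-domain partner of Hspa8, and wider, -0.56 to 0.30, for Hspa8.

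The sign of several of these differences depended on Control replicate 2. Hspb1, the small heat shock protein HSP25, had 119 CPM in that library and 55.8 and 48.8 CPM in the other Control libraries, against 69.7, 71.4 and 76.2 CPM under Ang II. Its log2 fold change was -0.04 with that library and 0.47 without it. Hspa8 had 544, 730 and 395 CPM in Control and 477, 502 and 549 CPM under Ang II. Its log2 fold change went from -0.13 to 0.12 without Control replicate 2, that of Hspb7 from -0.11 to 0.13, and that of Bag3 from -0.02 to 0.02. The inducible HSP70 genes were low in both groups. Hspa1a had 1.05 ± 0.36 CPM in Control and 1.07 ± 0.26 CPM under Ang II, and Hspa1b 1.15 ± 0.40 and 0.887 ± 0.19 CPM, with log2 fold changes of 0.03 ± 0.35 and -0.38 ± 0.31.

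**Figure D2:**
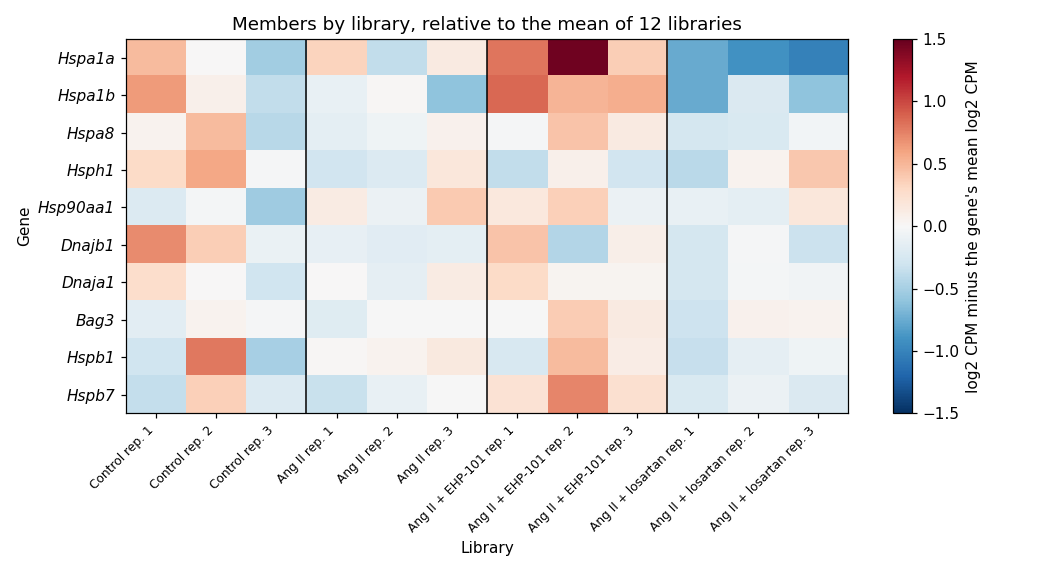
Each member (rows) in each of the 12 libraries (columns, black lines between groups). Colour is the log2 CPM of the library minus the gene's mean over 12 libraries, red above and blue below it. Control replicate 3 is below Control replicate 2 in all 10 rows, and the row of Hspa1a separates the EHP-101 from the losartan libraries.

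The next question was how the members differed between infused mice with and without EHP-101. The 10 members had 0 calls in edgeR, in DESeq2 and in limma-voom, and the share of all genes called in edgeR was 0%. At an unadjusted p under 0.05 there were 3 members, all higher under EHP-101, against 7.22% of all genes and 2.11% higher. They were Hspa1a, Hspa1b and Hspb7, and for the same 3 the groups did not overlap, against 16.8% of all genes in either direction and 7.01% higher. The near-identical Hspa1a and Hspa1b count separately here, though their reads may not be separable. The median log2 fold change of the 10 was 0.23, against 0.000251 over all genes.

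Hspa1a had 1.29, 0.789 and 1.124 CPM with Ang II alone and 1.78, 2.81 and 1.31 CPM with EHP-101. The lowest EHP-101 library was just above the highest Ang II library, and replicate 2 stood above the rest. The log2 fold change was 0.87 ± 0.34 (adjusted p = 0.58, edgeR) and was 0.53 without Ang II + EHP-101 replicate 2. Hspa1b had 0.949, 1.04 and 0.675 CPM with Ang II alone and 1.86, 1.45 and 1.49 CPM with EHP-101. All 3 EHP-101 libraries were above all 3 Ang II libraries, and edgeR gave 0.85 ± 0.30 on the log2 scale (adjusted p = 0.528). With the reads of both copies summed, the log2 fold change was 0.86 (adjusted p = 0.425).

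Hspb7 had 1908, 2229 and 2383 CPM with Ang II alone and 2785, 3993 and 2835 CPM with EHP-101. The groups were apart, and Ang II + EHP-101 replicate 2 was again the highest. The log2 fold change was 0.56 ± 0.20 (unadjusted p = 0.0167, adjusted p = 0.545, edgeR), and 0.37 without Ang II + EHP-101 replicate 2. With losartan Hspb7 had 2041, 2260 and 2056 CPM, within the range of the Ang II libraries. The summed level of the 10 cardiomyocyte markers was 62438 to 75522 CPM with Ang II alone. It was 70405 to 82936 CPM with EHP-101 and 70346 to 81434 CPM with losartan, with 0 markers at 0. The part of this sum in the levels of Hspb7 was not tested in any comparison. The summed immediate early genes, which respond quickly to many stimuli, were 320 to 568 CPM with Ang II alone, 201 to 348 CPM with EHP-101 and 212 to 301 CPM with losartan. All 10 atrial markers had negative log2 fold changes with EHP-101 and no overlap (median -1.51), with sums of 3226 to 5115 CPM with Ang II alone and 1841 to 2381 CPM with EHP-101. All 7 tested leukocyte markers were negative too, 5 without overlap (median -0.77; summed 298 to 405 and 131 to 247 CPM). Over all genes 16.8% had no overlap in either direction. In both lists 0 passed the threshold in edgeR. The part of these genes in the levels of Hspa1a, Hspa1b and Hspb7 was not tested.

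The other 7 members overlapped between the Ang II and EHP-101 groups. Bag3 had 186, 243 and 204 CPM with EHP-101 against 164, 186 and 185 CPM, and edgeR gave a log2 fold change of 0.24 ± 0.14 with an adjusted p of 0.834. Hspa8 had 520, 708 and 578 CPM with EHP-101, a log2 fold change of 0.24 ± 0.20. Both were highest in Ang II + EHP-101 replicate 2 among the EHP-101 libraries. The 2 J-domain members, Dnajb1 and Dnaja1, had log2 fold changes of 0.22 and 0.13, and Hspb1 one of 0.07. Hsph1 and Hsp90aa1 had -0.09 and -0.0023.

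The comparison of losartan with Ang II alone asks what AT1 blockade changed during the infusion. The 10 members had 0 calls in edgeR, DESeq2 and limma-voom, with 0% of all genes called in edgeR. At an unadjusted p under 0.05 there was 1 member, which was lower, against 8.41% of all genes and 6.14% lower. The groups did not overlap for 2 members, both lower, against 19.7% in either direction and 10.5% lower. The median log2 fold change of the 10 was -0.12, against 0.00299 over all genes.

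The 2 members were Hspa1a and Hspb1. Hspa1a had 0.604, 0.544 and 0.506 CPM with losartan, 12 or 13 reads a library, and its lowest Ang II library had 0.789 CPM. The log2 fold change was -0.95 ± 0.37 (unadjusted p = 0.0241, adjusted p = 0.49, edgeR). With both copies summed it was -0.62 (adjusted p = 0.567). Hspb1 had 54.0, 62.6 and 66.1 CPM with losartan against 69.7 to 76.2 CPM, for which edgeR gave -0.25 ± 0.28 on the log2 scale (adjusted p = 0.886). Hspa1b had 0.604, 0.878 and 0.675 CPM with losartan and overlapped the Ang II libraries (log2 fold change -0.30 ± 0.32). Bag3, Hspb7 and Dnajb1 had log2 fold changes of 0.0036, -0.04 and -0.05. Hsp90aa1 had 55.2, 53.7 and 66.7 CPM with losartan, between the Control and Ang II groups in mean, with a log2 fold change of -0.18 ± 0.17 against Ang II.

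**Figure D3:**
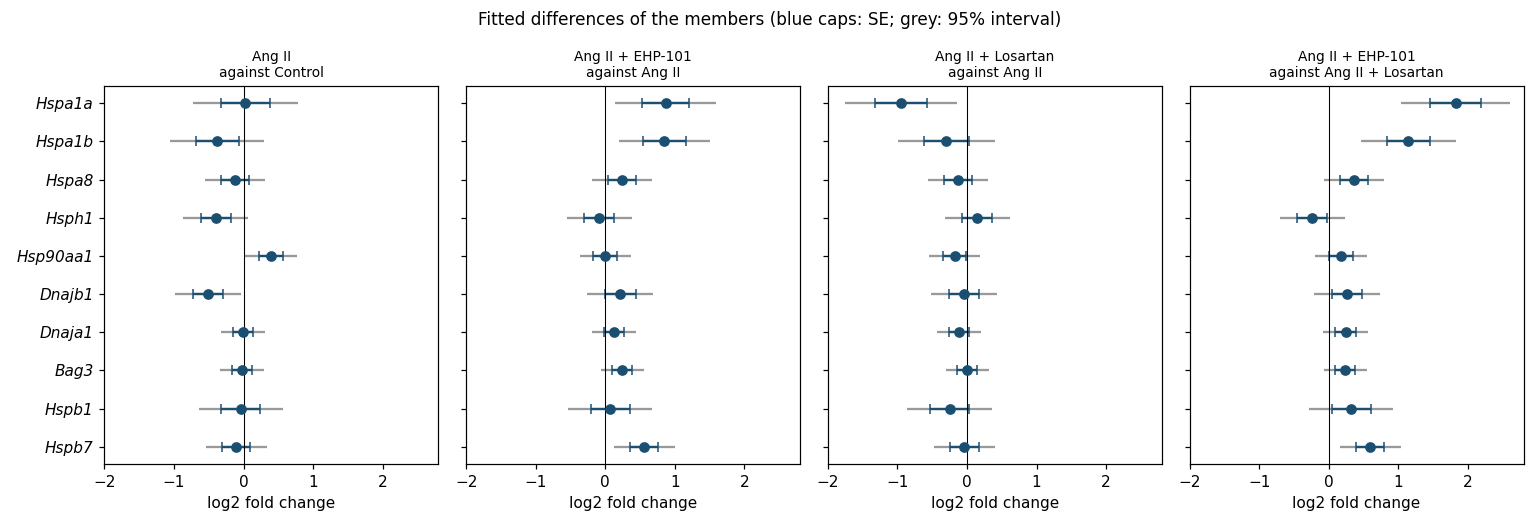
Fitted log2 fold change (x axis) of each member (y axis) in 4 comparisons. Points are edgeR estimates, blue caps the SE and grey lines the 95% interval. The widest separation shown is that of Hspa1a between the treatments, 1.82, and the Ang II against Control panel has 8 of 10 points below 0.

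The direct comparison of EHP-101 with losartan, both during Ang II infusion, gave the widest differences of Hspa1a, Hspa1b and Hspb7. Here 0 of the 10 members passed in edgeR and in limma-voom, with 0% of all genes called in edgeR. DESeq2 called 25 of 28674 genes, and 1 of these was a member. That gene was Hspa1a, with a log2 fold change of 1.82 ± 0.36 and an adjusted p of 0.389 in edgeR, and 1.83 with an adjusted p of 0.0244 in DESeq2. Its EHP-101 libraries, at 1.31 to 2.81 CPM, were all above its losartan libraries, at 0.506 to 0.604 CPM. By unadjusted p (0.000257) it had rank 9 among the 15336 genes of that comparison. Without Ang II + EHP-101 replicate 2 the log2 fold change was 1.48. With both copies summed it was 1.48 as well (adjusted p = 0.25). Over the other alternatives, DESeq2 aside, the adjusted p of Hspa1a ran from 0.0764, with no filter on low counts, to 1, without Ang II + Losartan replicate 3.

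At an unadjusted p under 0.05 there were 3 members in this comparison, all higher with EHP-101, against 6.04% of all genes and 3.07% higher. The groups did not overlap for 5 members, all higher with EHP-101, against 13.3% in either direction and 6.57% higher. Both counts again hold Hspa1a and Hspa1b as separate members. Besides Hspa1a these were Hspa1b (log2 fold change 1.15 ± 0.31), Hspb7 (0.60 ± 0.20), Hspa8 (0.37 ± 0.20) and Dnaja1 (0.24 ± 0.15). Their adjusted p values in edgeR were 0.59, 0.72, 0.873 and 0.906. Hspa8 had 438, 450 and 512 CPM with losartan, and its lowest EHP-101 library had 520 CPM. Hsph1 was the only 1 of the 10 with a lower mean under EHP-101, 57.5 ± 9.77 against 67.7 ± 18.3 CPM, and its groups overlapped. These values share libraries with the comparisons against Ang II alone and add no independent evidence to them.

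Against Control, the treated groups also had 0 member calls in edgeR, DESeq2 and limma-voom. With EHP-101 4 members had an unadjusted p under 0.05, against 16.9% of all genes, 8.76% higher and 8.15% lower: Hspa1a, Hsp90aa1 and Hspb7 higher and Hsph1 lower, with log2 fold changes of 0.90, 0.39, 0.45 and -0.49. Without Ang II + EHP-101 replicate 2, Hspa1a was at 0.55 and Hspb7 at 0.26, with unadjusted p values of 0.129 and 0.236. All 4 had overlapping groups, as did the other 6, against 21.1% of all genes without overlap, and their adjusted p values were 0.233, 0.274, 0.285 and 0.279 in edgeR. The share of all genes called was 0.398% there. With losartan there were 2 such members against 10.7% of all genes, 5.16% lower, Hspa1a and Dnajb1, both lower (log2 fold changes -0.93 ± 0.38 and -0.55 ± 0.22, adjusted p = 0.456 for both in edgeR, with 0% of all genes called). Without Control replicate 1 these were -0.64 and -0.35, each with an unadjusted p of 0.147. Hspa1a was the only member whose losartan and Control libraries did not overlap, against 15.4% of all genes in either direction and 7.09% lower.

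Across the 4 groups, the mean was highest with EHP-101 for 7 of the 10 members and lowest with losartan for 7. The share of all genes with these orders was not computed, and the near-identical Hspa1a and Hspa1b count separately. The counts are therefore only a description of the members. Hsph1 and Dnajb1 were highest in Control, and Hsp90aa1 was highest with Ang II and lowest in Control. For Hspb7 the order was EHP-101 (3204 ± 683 CPM), Control (2343 ± 636 CPM), Ang II (2173 ± 242 CPM) and losartan (2119 ± 122 CPM), in which only EHP-101 stood apart from Ang II and losartan without overlap.

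The members did not vary as 1 block from library to library. Of 45 pairs of members, 39 had a positive correlation of log2 CPM over the 12 libraries, with a median Pearson r of 0.446, and with group means removed 32 were positive, with a median of 0.33. These values share library depth and scaling and are given as a description. Hspa8 and Hspb1 were the closest pair (r = 0.884), followed by Hspb7 and Bag3 (0.820). Without Control replicate 2 these were 0.825 and 0.841, so their order depended on that library. Hspa1a and Hspa1b had r = 0.764 over all libraries and 0.277 within groups. Dnajb1 went with Dnaja1 (0.628) and Hspa1b (0.596) but not with Hsp90aa1 (-0.295) or Bag3 (-0.244). Within groups the spread of log2 CPM was lowest for Bag3 (SD 0.162) and Dnaja1 (0.183) and highest for Hspb1 (0.399) and Hspa1a (0.393), where the median tested gene had 0.247.

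Single libraries held the extremes of several members. Control replicate 2 was the highest of 12 for Hspa8, Hsph1 and Hspb1, and Ang II + EHP-101 replicate 2 for Hspa1a, Hspb7 and Bag3. The latter library was also the lowest of 12 for Dnajb1, at 12.02 CPM. It had 239 CPM of Fkbp5, a glucocorticoid-induced HSP90 co-chaperone, against 11.4 to 63.6 CPM in the other 11 libraries. Control replicate 3 was the lowest of 12 for Hspa8, Dnaja1, Hsp90aa1 and Hspb1.

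The rest of the chaperone network was read from 9 lists with 74 tested genes. Between the Ang II and Control groups, 0 of the 74 passed in edgeR, where 0.541% of all genes did. With the unadjusted p below 0.05 as the limit, 3 were higher and 10 lower, against 9.09% and 8.53% of all genes. All 7 mitochondrial chaperones had negative log2 fold changes (median -0.38), as did all 5 other small heat shock proteins (median -0.41), all 8 TRiC chaperonin subunits (median -0.26) and all 8 other exchange factors and regulators (median -0.28). These lists depended on Control replicate 2. Without it the median was 0.062 for the small heat shock proteins, with 3 of 5 positive, -0.074 for TRiC, with 1 of 8 positive, and -0.031 for the exchange factors, with 2 of 8 positive. The mitochondrial list then had a median of -0.25, with all 7 still negative, and of the 74 genes 2 were higher and 6 lower by unadjusted p. Leaving it out here was chosen after seeing the data. In the same comparison 9 of 10 cardiomyocyte markers had negative log2 fold changes (median -0.40; summed 78468 to 84310 CPM in Control and 62438 to 75522 CPM under Ang II). All 9 fibroblast markers had positive ones (median 0.68; summed 2335 to 3994 and 4447 to 5788 CPM), with 2 past the threshold in edgeR. Their part in the chaperone lists was not tested. The mitochondrial disaggregase Clpb had a log2 fold change of -0.38 ± 0.12 and the mitochondrial HSP90 Trap1 one of -0.36 ± 0.12 (adjusted p = 0.164 and 0.199, edgeR). Among the small heat shock proteins Hspb2 had -0.52 ± 0.19 and Cryab -0.49 (adjusted p = 0.224 for Hspb2). Cryab had 2537 CPM in Control replicate 2 and 1264 and 1344 CPM in the other Control libraries, against 1110 to 1313 CPM under Ang II.

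Of the 12 genes of HSP90 and its co-chaperones, 9 had negative log2 fold changes (median -0.18), Hsp90ab1 among them, and without Control replicate 2 the median was -0.080. Fkbp4, which works on steroid receptors, had 391, 565 and 372 CPM in Control and 248, 305 and 268 CPM under Ang II. All Ang II libraries were below all Control libraries, and edgeR gave -0.69 ± 0.17 on the log2 scale, with an adjusted p of 0.108. Under EHP-101 it had 225 to 265 CPM, a log2 fold change of -0.83 against Control (adjusted p = 0.0643, the smallest among the 74 genes in any of the 6 comparisons). Stip1, which links HSP70 to HSP90, had a log2 fold change of -0.35 under Ang II (adjusted p = 0.236), and Chordc1 one near 0. The list of endoplasmic reticulum chaperones, which fold secreted protein, and stress genes mostly had the opposite sign. Of its 15 genes, 12 were positive under Ang II (median 0.27, and 0.24 without Control replicate 2). The disulfide isomerase Pdia3 had a log2 fold change of 0.46 ± 0.15 under Ang II (adjusted p = 0.192).

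With losartan against Ang II, 13 of the 15 endoplasmic reticulum genes had negative log2 fold changes, with a median of -0.36 and 0 past the threshold. In the same comparison 8 of 9 fibroblast markers were negative (median -0.57; summed 4447 to 5788 CPM with Ang II alone and 2977 to 4017 CPM with losartan), as were all 7 tested leukocyte markers (median -0.56; summed 298 to 405 and 214 to 292 CPM). Their part in the endoplasmic reticulum list was not tested. Sdf2l1 had -0.86 ± 0.28 and Pdia3 -0.44 ± 0.15 (adjusted p = 0.374 and 0.414, edgeR). The medians there were -0.01 for other exchange factors, 0.01 for other small heat shock proteins, 0.03 for the HSP90 list, 0.05 for TRiC, 0.10 for other HSP70 genes and 0.16 for other J-domain genes. With EHP-101 against Ang II, 8 of 9 other J-domain genes had positive log2 fold changes (median 0.20, 0 past the threshold), the same count as with losartan. The median was 0.12 without Ang II + EHP-101 replicate 2. Among them were Dnajc7 at 0.27 ± 0.12 and Dnajb2 at 0.25 ± 0.11. Hsf1, which encodes the regulator itself, had 26.6 to 52.4 CPM over the 12 libraries, with Control replicate 2 the highest, and log2 fold changes of -0.22, 0.07 and -0.08 for Ang II against Control, EHP-101 against Ang II and losartan against Ang II. The activity of HSF1 is set largely after translation, which counts of its transcript do not show.

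**Figure D4:**
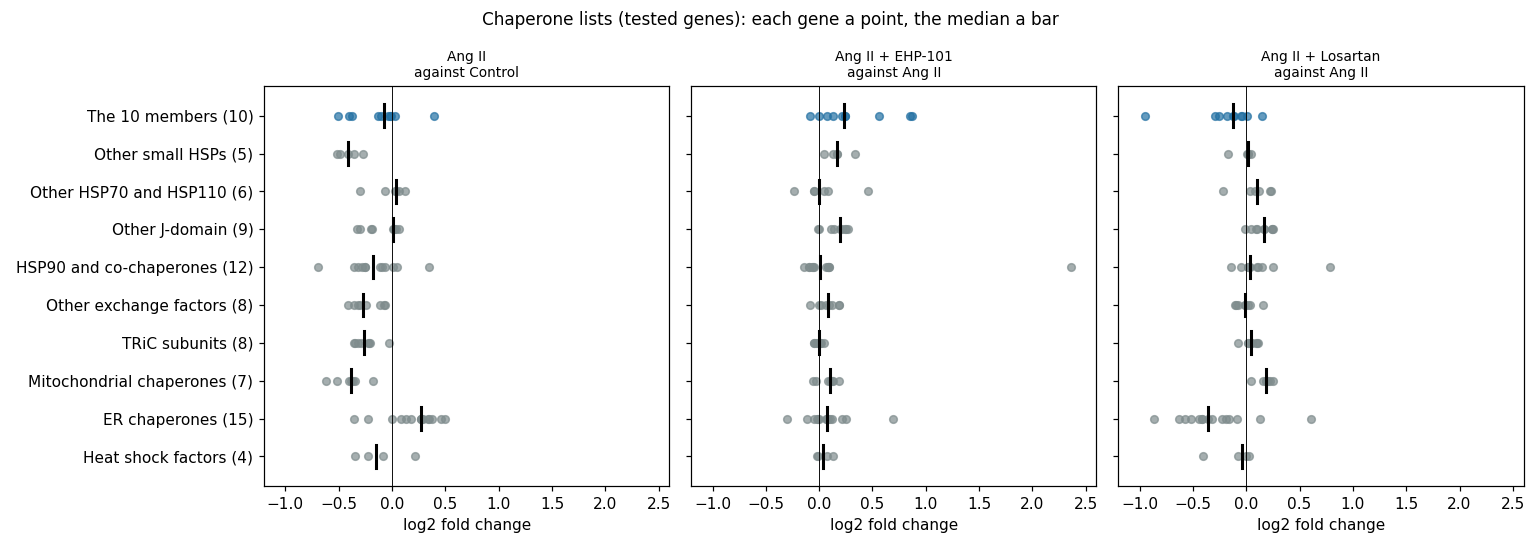
Log2 fold change (x axis) of every tested gene in the members and 9 other chaperone lists (rows, number of genes in parentheses), in 3 comparisons. Points are genes and black bars list medians. Under Ang II the mitochondrial list lies below 0 (median -0.38) and the endoplasmic reticulum list mostly above it (median 0.27), and the point far right under EHP-101 is Fkbp5.

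The genes whose levels over the 12 libraries were most like the mean of the members were, among 10510 genes with at least 5 CPM, Ankrd46 (r = 0.914), Cuedc1 (0.867), Babam2 (0.862), Tcf25 (0.861), Jmjd6 (0.854) and Gtf2f1 (0.853). The median r of all those genes was 0.0538, and 10.3% had an r over 0.5. The mean was not scaled by the spread of each member, so those that varied most weigh most in it. These were Hspa1a (SD of log2 CPM over 12 libraries 0.687) and Hspa1b (0.497), which have few reads. Ankrd46 kept to a narrow range, from 41.4 to 50.7 CPM. Without Control replicate 2, Ankrd46 and Jmjd6 were again among the 6 most alike. The other 11 libraries are the same in both sets, so this is not an independent check.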

How the data were processed

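The deposited values were raw read counts per Ensembl gene in 12 heart libraries, and each of the 12 columns was matched to a sample by its title. Per the labels' protocols, mRNA was captured with oligo-dT from 300 ng of RNA for a TruSeq v2 preparation, which keeps no strand, and read from one end for 50 bp. The submitters' processing notes list fastp 0.20.0, HISAT2 2.1.0, GRCm38, featureCounts 2.0.0 and edgeR 3.30.0 for the authors' work.

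The tests used edgeR 4.0.16 under R 4.3.3. Filtering by filterByExpr left 15336 genes, and libraries were scaled by TMM. One robust quasi-likelihood model of the 4 group means took in all 12 libraries, and 6 contrasts were tested two-sided with Benjamini-Hochberg adjustment over all tested genes at 0.05. The SE of a log2 fold change is its size divided by the square root of F, so it restates the test. SD is over 3 libraries, and CPM uses TMM-scaled totals. The correlations used log2 CPM with a prior count of 2, and RPKM used merged exon lengths. Intervals are 95%. The members and lists were chosen with earlier results of these data known. All members are named, with 12 close relatives, up to 2 genes of smallest p per chaperone list and comparison, and the 6 most alike genes. Skeletal muscle markers are also named, chosen after their values were seen. The alternatives tried were DESeq2 1.42.0 and limma-voom (limma 3.58.1), scaling by RLE or by library size alone, no filter or one of 5 CPM on average, a replicate block, a fit of 2 groups at a time, summed reads of Hspa1a and Hspa1b, and each library left out. On simulated counts for Ang II against Control (15173 genes), the fit called 74 of 100 genes with a log2 change of 1, 98 of 100 with 2, and 7 of 14973 unchanged genes. The simulation drew each gene independently around a mean common to all libraries, apart from the set changes. Changed genes came only from those above a minimum mean count. No simulated library stood apart as Control replicate 2 does, so these rates may differ in the real data.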

Additional observations from a re-analysis of the deposited data

How the results depend on the processing

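The member counts stayed at 0 in all 6 comparisons under every alternative run, except that DESeq2 called 1 member, Hspa1a, between EHP-101 and losartan. The filter of 5 CPM on average left out Hspa1a and Hspa1b, so that run could not call them. The summed run held the pair as a single gene. The count over all genes moved more than that of the members. For Ang II against Control it was 83, with 505 in DESeq2, 52 in limma-voom, 167 with no filter, 20 with only the 2 groups, and 8 to 151 without single libraries. For EHP-101 against Control it was 61, with 492 in DESeq2, 22 by library size alone, 158 with no filter, 14 with only the 2 groups, and 5 to 62 without single libraries. For EHP-101 against Ang II, losartan against Ang II, EHP-101 against losartan and losartan against Control it was 0, with 60, 108, 25 and 22 in DESeq2. It was 10, 30 and 3 with no filter for the first 3 of these, 3 and 1 with only the 2 groups for the first 2, and 3 and 2 without Control replicate 2 for losartan against Ang II and EHP-101 against losartan.

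The replicate numbers of the titles were not taken as pairs in the main fit. Deviations of same-numbered libraries correlated from -0.327 to 0.33, above 0.1 in 4 of 18 pairs. Those of the 36 differently numbered pairs correlated from -0.374 to 0.315. Such correlations cannot show how the libraries were made. The replicate block gave 57 calls in place of 83, 36 in place of 61 and 0 members in every comparison.

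Of 1242 member log2 fold changes under alternatives, 60 changed sign, and 0 of these passed the threshold. Library size alone, which moved the median of all genes by 0.17 for Ang II against Control, gave there 0.073 for Hspa8, 0.17 for Dnaja1, 0.19 for Hspb1, 0.093 for Hspb7 and 0.15 for Bag3. It gave -0.022 for Dnaja1 and -0.091 for Hspb1 with EHP-101 against Ang II, and -0.11 and 0.042 for Bag3 with losartan against Ang II and Control. For Ang II against Control, Dnaja1 and Hspb1 had 0.0069 and 0.070 in limma-voom, 0.00023 and 0.044 with the replicate block, and 0.031 and 0.0076 with a mean of at least 5 CPM, where Bag3 had 0.015. Hspa1a had -0.17 with both copies summed. Hsp90aa1 with EHP-101 against Ang II had 0.0027 with RLE factors, 0.0031 in DESeq2, 0.0015 in limma-voom, 0.0048 with no filter and 0.0022 with only the 2 groups. Bag3 with losartan against Ang II had -0.0056 in limma-voom, -0.0035 with the replicate block and -0.015 with a mean of at least 5 CPM, and against Control 0.00032 with that mean. The cause of these was not tested.

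Leaving out single libraries moved these values for Ang II against Control: Hspa1a -0.18 to 0.31, Hspa8 -0.31 to 0.12, Dnaja1 -0.13 to 0.14, Hspb1 -0.26 to 0.47, Hspb7 -0.25 to 0.13 and Bag3 -0.082 to 0.036. For EHP-101 against Ang II they were Hsph1 -0.23 to 0.061, Dnajb1 -0.0038 to 0.42, Hsp90aa1 -0.11 to 0.13 and Hspb1 -0.13 to 0.23. For losartan against Ang II they were Hsph1 -0.059 to 0.33, Dnajb1 -0.14 to 0.016, Hspb7 -0.12 to 0.035 and Bag3 -0.059 to 0.12. For EHP-101 against Control they were Hspa8 -0.075 to 0.36, Dnaja1 -0.0084 to 0.27 and Hspb1 -0.19 to 0.54. For losartan against Control they were Dnaja1 -0.25 to 0.025, Hspb1 -0.51 to 0.23, Hspb7 -0.28 to 0.10 and Bag3 -0.085 to 0.091. With 12 to 60 reads a library for Hspa1a and 13 to 44 for Hspa1b, the inducible HSP70 pair has the largest SE of the 10 for Ang II against Control. Without Control replicate 2, chosen after seeing the data, the list medians for Ang II against Control changed sign for other small heat shock proteins (0.062) and other J-domain genes (-0.012).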
